A study of Mus musculus with 6 samples.

Results

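Laminins are the trimeric proteins from which basement membranes are assembled, and integrins are the cell surface receptors, each of 1 alpha and 1 beta subunit, that bind them and other matrix proteins. The genes of both families were taken from the deposited gene table by symbol (Lama, Lamb or Lamc with a number from 1 to 5, Itga with any suffix, and Itgb with a number from 1 to 8). This gave 37 of 24532 genes, namely 11 laminin chains, 18 integrin alpha subunits and 8 integrin beta subunits. They were followed through 6 bulk RNA-seq libraries of mouse tissue at PN1 (the first day after birth), of which 4 came from kidney (2 Ahnak KO and 2 WT) and 2 from ureter (1 of each genotype). Ahnak KO mice carry a disruption of exon 5 of Ahnak, which encodes a large scaffold protein, and the labels name no agent in any group. By the methods, RNA came from 2 to 4 kidneys or ureters at a time, and how many stood behind each library is not given. The titles of both ureter libraries carry the word kidney, whereas their source is given as ureter, and the source was followed here. The labels' treatment text also speaks of periodontal cells, so the tissue was checked by its markers.

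A laminin trimer holds 1 alpha, 1 beta and 1 gamma chain and is named by their numbers. Laminin-332, which holds Lama3 and Lamb3, is the ligand of integrin α6β4 in hemidesmosomes, the junctions that fix a stratified epithelium such as the urothelium to its basement membrane, while laminins with the Lama1, Lama5, Lamb1, Lamb2 and Lamc1 chains line tubules, vessels and glomeruli. In the kidney, integrin α8β1 and its ligand nephronectin (Npnt) are needed for the ureteric bud to enter the metanephric mesenchyme, and α3β1 is needed in podocytes and the collecting system.

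The promoters of members that differed most between the tissues are shown first, since the results turn on these genes. Of the 37 members, 23 were found in the RefSeq promoter table (build GRCm38.p6, 250 bases before to 50 bases after a start site). Among members that passed the tissue test with a log2 difference beyond 2, windows of Lamb3, Itga2, Itga8 and Itgb8 are shown. Windows on the chromosome of Lama3 were not taken. Each is written 5′ to 3′ along its gene, and capitals mark a match on either strand to the AP-1 motif TGANTCA, the GC box GGGCGG or the TATA box TATAAA. The windows were chr1:193301744-193302043 (plus strand) for Lamb3, the first of 2 starts listed, chr13:114932051-114932350 (minus strand) for Itga2, chr2:12301895-12302194 (minus strand) for Itga8 and chr12:119238227-119238526 (minus strand) for Itgb8.
Lamb3: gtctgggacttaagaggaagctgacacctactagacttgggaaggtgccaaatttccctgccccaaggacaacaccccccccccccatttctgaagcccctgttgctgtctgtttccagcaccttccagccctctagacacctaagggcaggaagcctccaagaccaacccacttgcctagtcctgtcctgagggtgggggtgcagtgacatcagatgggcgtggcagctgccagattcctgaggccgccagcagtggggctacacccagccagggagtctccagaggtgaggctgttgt
Itga2: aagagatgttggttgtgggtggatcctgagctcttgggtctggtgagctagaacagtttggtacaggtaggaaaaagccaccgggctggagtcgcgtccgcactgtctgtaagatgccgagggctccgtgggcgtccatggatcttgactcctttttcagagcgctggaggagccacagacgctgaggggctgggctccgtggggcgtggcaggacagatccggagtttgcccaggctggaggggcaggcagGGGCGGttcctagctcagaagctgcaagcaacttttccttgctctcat
Itga8: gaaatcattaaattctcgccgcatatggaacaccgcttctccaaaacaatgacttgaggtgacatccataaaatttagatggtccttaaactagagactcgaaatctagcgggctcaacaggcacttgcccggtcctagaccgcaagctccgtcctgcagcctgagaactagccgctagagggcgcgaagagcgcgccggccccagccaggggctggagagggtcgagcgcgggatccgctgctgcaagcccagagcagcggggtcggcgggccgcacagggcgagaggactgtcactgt
Itgb8: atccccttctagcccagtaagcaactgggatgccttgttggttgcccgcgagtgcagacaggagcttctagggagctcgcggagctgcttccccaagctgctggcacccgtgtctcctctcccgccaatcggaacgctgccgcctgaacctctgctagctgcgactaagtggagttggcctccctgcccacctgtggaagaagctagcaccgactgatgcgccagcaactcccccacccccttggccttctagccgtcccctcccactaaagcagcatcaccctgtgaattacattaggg
Lamb3 and Itga2 were higher in ureter and Itga8 and Itgb8 in kidney, as described below with their values. A GC box was present in the Itga2 window only among these 4, and it was present in 35.7% of all 32851 windows of this length. AP-1 and TATA box letters, found in 7.81% and 13.6% of all windows, did not occur in the 4 windows, which says nothing on the factors that bind them. GC content was 59.3% for Lamb3, 59.3% for Itga2, 59.0% for Itga8 and 60.7% for Itgb8, against a median of 52.7% over all windows.

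The libraries held 36410246 (ureter labelled Ahnak KO) to 66095616 estimated counts, and 3 counts stood for 0.0454 to 0.0824 CPM (counts scaled to the library total), a limit that covers counting error only. Ahnak was read in every library, at 148 and 139 CPM in KO kidneys, 198 and 203 CPM in WT kidneys, 519 CPM in the ureter labelled KO and 681 CPM in WT ureter. By the authors' FPKM it was at 9.91 and 11.1 in KO kidneys, 13.5 and 12.03 in WT kidneys, 45.5 in the ureter labelled KO and 40.6 in WT ureter. Kidney was lower in KO on both scales, whereas in ureter the order turned with the scale, and by FPKM the gene went against the label, so that this library is written as labelled KO. The ureter library labelled KO stood apart by 8.06% of its counts on the ribosomal RNA precursor gene Rn45s, against 0.496% to 0.632% elsewhere, and KO kidney replicate 1 by 3096 CPM of Xist against at most 0.655 CPM in the other 5. The ureter label fitted its markers, since all 7 urothelium and 6 of 6 smooth muscle markers passed the test as higher in ureter, and all 10 nephron markers as higher in kidney. Urothelium markers summed to 4260 and 4544 FPKM (fragments scaled by transcript length and library size) in ureters and 44.3 to 50.7 FPKM in kidneys, and nephron markers to 6.40 and 7.86 FPKM in ureters and 361 to 460 FPKM in kidneys. In whole tissue, fewer cells of a type and less RNA per cell cannot be told apart.

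The first comparison asked how the 2 families differ between kidney and ureter, with 4 libraries against 2 and genotype as a covariate. By the edgeR quasi-likelihood test, 13 of 35 members tested were higher in ureter, against 21.4% of all genes tested, and 6 were higher in kidney, against 23.7% of all genes. A total of 16 members did not pass, and Itgad and Itgax were too low to be tested. Members that passed were 6 laminin chains, 4 alpha and 3 beta subunits higher in ureter, and 2 laminin chains, 3 alpha subunits and 1 beta subunit higher in kidney. The median log2 fold change of the 35 members was 0.40 with a median size of 0.87, against -0.08 and 0.58 over all genes. The kidney and ureter libraries did not overlap for 23 of 35 members, close to the 61.0% of all genes. Scaling by library size alone moved the median of all genes to -0.37 and gave 7 members higher in ureter and 8 in kidney, and 3603 and 3992 genes in all became 2371 and 6108. Under all 15 alternatives 7 of the 13 (Lama3, Lamb3, Lamc3, Itga2, Itga3, Itgb3 and Itgb4) and 4 of the 6 (Lama1, Lamb1, Itga8 and Itga9) passed in the same direction.

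**Figure D1:**
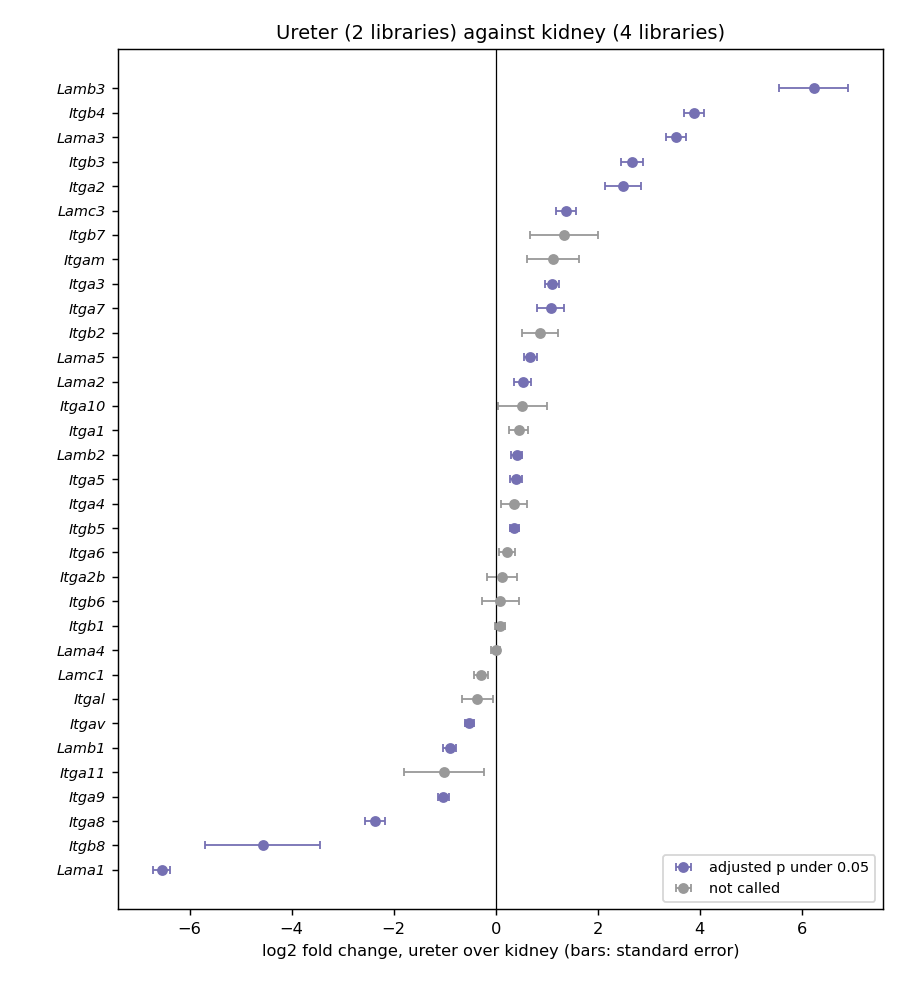
Log2 fold change of ureter over kidney with its standard error for 33 members, coloured by whether the adjusted p was under 0.05. Lamb3 (6.23), Itgb4 (3.88) and Lama3 (3.53) lie at the ureter end, and Lama1 (-6.55), Itgb8 (-4.57) and Itga8 (-2.37) at the kidney end.

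Among the laminin alpha chains, Lama1 and Lama3 differed strongly between the tissues. Lama1, an alpha chain of early epithelial basement membranes (gene 16772, GRCm38 chr17:67697127-67822645), had 19.8 and 16.6 FPKM in the KO kidneys, 19.0 and 16.6 FPKM in the WT kidneys, 0.153 FPKM in the ureter labelled KO and 0.160 FPKM in the WT ureter. Every kidney library lay above both ureters, with means of 18.0 ± 1.63 (SD, n = 4) and 0.156 ± 0.00442 FPKM (SD, n = 2), a 115-fold difference. Its log2 fold change was -6.55 ± 0.168 (SE, the standard error, edgeR adjusted p = 5.31e-06). Lama1 made up 24.3% of the summed alpha chain FPKM in kidney and 0.228% in ureter.

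Lama3, the alpha chain of laminin-332 (gene 16774, chr18:12333417-12583013), ran the other way. It had 0.593 and 0.611 FPKM in KO kidneys, 0.630 and 0.832 FPKM in WT kidneys, 11.9 FPKM in the ureter labelled KO and 7.22 FPKM in the WT ureter. The tissues stood apart in all 6 libraries, and the log2 fold change on counts was 3.53 ± 0.190 (SE, edgeR adjusted p = 4.6e-05). Its share of alpha chain FPKM was 0.907% in kidney and 14.1% in ureter.

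The gene table lists 2 Lama3 transcripts, and the count and the FPKM of a library together give the length by which the authors divided the count. For Lama3 this length was 10597 and 10598 bases in the KO kidneys, 10574 and 10600 bases in the WT kidneys, 5883 bases in the ureter labelled KO and 8655 bases in the WT ureter. In the GENCODE annotation of the same build, the longer transcript has 10548 bases in 75 exons and starts at chr18:12333819, and the shorter has 5551 bases in 38 exons and starts within the gene at chr18:12504199. Kidney values thus lay at the length of the longer transcript, and the ureter values lay between both, with the ureter labelled KO closer to the shorter. Of the 30 members with at least 50 counts in every library, Lama3 was the 1 whose implied length changed by 1.80-fold between libraries, while the others changed by at most 1.05-fold. Reads were not assigned to transcripts here, so this describes the authors' estimate, and the FPKM of Lama3 in ureter depends on it.

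Lama5, the widespread alpha chain of mature epithelia and vessels, had 24.8 and 25.1 FPKM in KO kidneys, 26.8 and 21.5 FPKM in WT kidneys, 28.0 FPKM in the ureter labelled KO and 36.5 FPKM in the WT ureter. It was the leading alpha chain in ureter with 46.7% of alpha chain FPKM, against 33.1% in kidney, and its log2 fold change was 0.68 ± 0.120 (SE, edgeR adjusted p = 0.00510). Lama2, the chain of muscle and peripheral nerve, was at 3.86 to 5.41 FPKM in kidneys and 5.74 (KO) and 5.23 FPKM (WT) in ureters, with a log2 fold change of 0.53 ± 0.166 (SE, edgeR adjusted p = 0.0406). Lama5 fell short of the threshold with library size alone (0.40) and with limma on log2(FPKM + 1) (0.37). Lama2 kept its call in 6 of 15 alternatives, and lost it with library size alone (0.24), with limma (0.20) and in each genotype alone. Lama2 also lost it without KO kidney replicate 2 (0.41), the ureter labelled KO (0.36), WT kidney replicate 1 (0.59), WT kidney replicate 2 (0.52) or WT ureter (0.70). Lama4, of vessels and muscle, was at 25.4 to 27.9 FPKM in kidneys and 20.0 and 22.7 FPKM in ureters, and its log2 fold change of -0.00 ± 0.0880 (SE, edgeR adjusted p = 0.969) became -0.29 and passed when library size alone was used.

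Among beta chains, Lamb3 (gene 16780, chr1:193294353-193343878), which is found in laminin-332, had 0.0930 and 0.480 FPKM in KO kidneys, 0.678 and 0.287 FPKM in WT kidneys, 29.0 FPKM in the ureter labelled KO and 16.7 FPKM in the WT ureter, a mean of 0.385 ± 0.252 (SD, n = 4) in kidney and 22.9 ± 8.70 FPKM (SD, n = 2) in ureter. The ureters held 4431 and 3822 counts of it. The kidney libraries themselves spanned a wide range, yet all lay far below the ureters, and the log2 fold change of 6.23 ± 0.674 (SE, edgeR adjusted p = 0.000695) was the highest of any member tested.

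Lamb1, the beta chain of most embryonic laminins (gene 16777, chr12:31265146-31329644), had 111.1 and 101.7 FPKM in KO kidneys, 110.1 and 101.3 FPKM in WT kidneys, 49.6 FPKM in the ureter labelled KO and 42.5 FPKM in the WT ureter. It fell by 0.90 on the log2 scale in ureter (SE 0.128, edgeR adjusted p = 0.00204) and remained the leading beta chain in both tissues, with 76.9% of beta chain FPKM in kidney and 44.7% in ureter. Lamb2, of mature glomerular and vascular basement membranes, was at 29.6 to 33.9 FPKM in kidneys and 33.4 and 34.7 FPKM in ureters. Its log2 fold change of 0.41 ± 0.103 (SE, edgeR adjusted p = 0.0190) fell to 0.12 and did not pass with library size alone. It passed in 9 of 15 alternatives, and also failed with limma (0.11), in each genotype alone and without the ureter labelled KO (0.33) or WT kidney replicate 2 (0.39).

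Lamc1, the gamma chain shared by most laminins, had 61.3 to 77.8 FPKM in kidneys and 48.7 (KO) and 44.1 FPKM (WT) in ureters, with a log2 fold change of -0.28 ± 0.137 (SE, edgeR adjusted p = 0.145) that became -0.57 and passed with library size alone. Lamc3, a minor gamma chain, had 2.0 to 2.36 FPKM in kidneys and 5.52 (KO) and 3.77 FPKM (WT) in ureters, and rose by 1.37 on the log2 scale (SE 0.196, edgeR adjusted p = 0.00220).

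**Figure D2:**
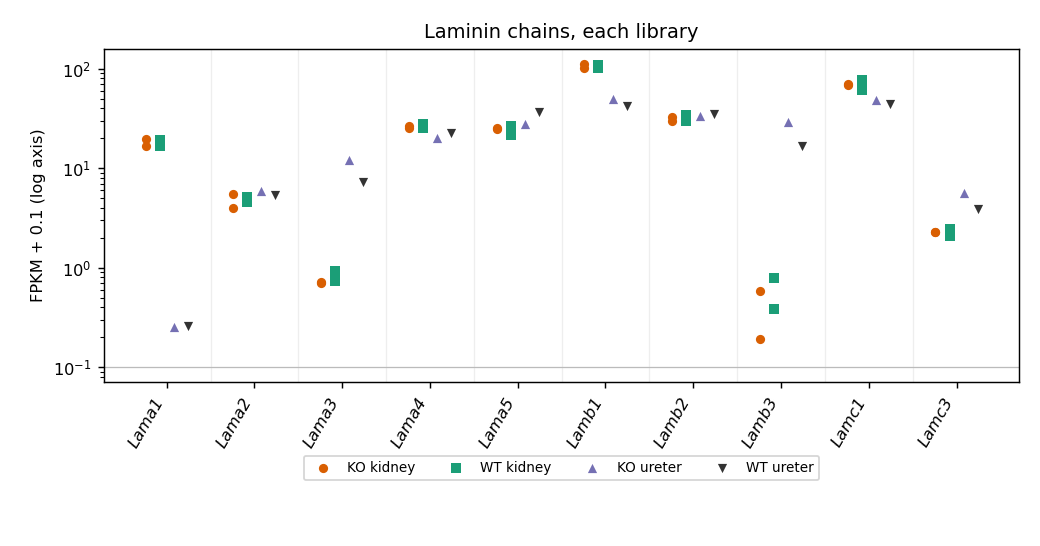
FPKM + 0.1 (log axis) of 10 laminin chains, with 1 point a library, coloured by genotype and tissue. Lama1 is near the lower limit in both ureters, and Lama3 and Lamb3 rise from below 1 FPKM in every kidney to above 7 FPKM in every ureter.

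Chain levels were then set against each other on the log2 scale of FPKM + 0.1. The log2 ratio of Lama3 to Lamb3, both chains of laminin-332, was 1.84 and 0.29 in KO kidneys, -0.09 and 1.27 in WT kidneys, -1.28 in the ureter labelled KO and -1.20 in the WT ureter. Mean FPKM of Lama3 was 1.73 times that of Lamb3 in kidney and 0.417 of it in ureter, and the kidney ratios were spread widely (0.83 ± 0.887, SD, n = 4). These ratios depend on the authors' length for Lama3, which was 10574 to 10600 bases in kidneys and 5883 (KO) and 8655 bases (WT) in ureters. Lama1 was 0.734 of Lama5 in kidney and 0.00485 in ureter, and Lamb1 was 3.37 times Lamb2 in kidney and 1.35 times in ureter. Lamb1 was also 1.53 times Lamc1 in kidney and 0.993 of it in ureter. All 4 laminin chain ratios computed had no overlap between tissues. Each holds a chain that itself passed the tissue test, so this is not separate support for those calls. For single genes, 61.0% of all genes did not overlap in scaled CPM, and no such share was computed for ratios of other genes. The 4 are not separate observations, since Lamb1 enters more than 1 of them. With 4 libraries against 2 there are 15 arrangements, so the exact two-sided permutation test cannot go below p = 0.0667 and no ratio can pass 0.05.

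Integrin subunits that bind laminin came next. Itgb4, the hemidesmosomal beta subunit (gene 192897, chr11:115974725-116008412), had 1.74 and 1.5 FPKM in KO kidneys, 1.91 and 1.88 FPKM in WT kidneys, 24.8 FPKM in the ureter labelled KO and 17.8 FPKM in the WT ureter. Both ureters lay far above all kidneys, at a log2 fold change of 3.88 ± 0.199 (SE, edgeR adjusted p = 3.89e-05). Its partner Itga6 had 38.0 and 27.8 FPKM in KO kidneys, 31.3 and 34.0 FPKM in WT kidneys, 32.8 FPKM in the ureter labelled KO and 29.0 FPKM in the WT ureter, which overlapped (log2 fold change 0.22 ± 0.159, SE, edgeR adjusted p = 0.295, and -0.07 with library size alone).

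Itga3, the other main receptor subunit for laminins with Lama3 and Lama5 (gene 16400, chr11:95044475-95076844), had 14.6 and 15.5 FPKM in KO kidneys, 18.0 and 14.4 FPKM in WT kidneys, 29.0 FPKM in the ureter labelled KO and 25.4 FPKM in the WT ureter. It rose by 1.10 on the log2 scale in ureter (SE 0.144, edgeR adjusted p = 0.00148). Itga7, known from muscle, had 1.16 to 1.98 FPKM in kidneys and 2.16 (KO) and 3.25 FPKM (WT) in ureters, with a log2 fold change of 1.08 ± 0.263 (SE, edgeR adjusted p = 0.0171), and did not pass without the WT ureter library (0.69), with the KO libraries alone, with limma (0.52) or with library size alone (0.80). Smooth muscle markers, whose 6 genes summed to 249 to 295 FPKM in kidneys and 1899 and 2511 FPKM in ureters, were higher in the same libraries, and their part in the result was not tested. Itgb1, the partner of most alpha subunits, was the highest member in every library at 197.8 to 219.5 FPKM in kidneys and 190.9 and 172.1 FPKM in ureters, and its log2 fold change of 0.08 ± 0.0947 (SE, edgeR adjusted p = 0.520) turned to -0.21 with library size alone.

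Among alpha subunits higher in kidney, the nephronectin receptor subunit Itga8 had the largest difference (gene 241226, chr2:12106632-12301985). It had 34.8 and 35.3 FPKM in KO kidneys, 36.9 and 31.0 FPKM in WT kidneys, 4.02 FPKM in the ureter labelled KO and 7.18 FPKM in the WT ureter. The kidney mean was 6.16 times the ureter mean, with a log2 fold change of -2.37 ± 0.191 (SE, edgeR adjusted p = 0.000203). Itga8 had 21.8% of alpha subunit FPKM in kidney, beside 20.6% for Itga6, which was above Itga8 in 1 KO and 1 WT kidney. Itga8 had 4.53% in ureter, where Itga6 (25.0%) and Itga3 (22.1%) led.

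Itga9, a receptor subunit for tenascin and osteopontin, had 23.7 and 20.2 FPKM in KO kidneys, 22.4 and 20.2 FPKM in WT kidneys, 8.26 FPKM in the ureter labelled KO and 8.69 FPKM in the WT ureter (log2 fold change -1.03 ± 0.106, SE, edgeR adjusted p = 0.000554). Itgav, which pairs with several beta subunits to bind vitronectin, fibronectin and latent TGF-beta, had 22.8 and 23.5 FPKM in KO kidneys, 20.5 and 18.9 FPKM in WT kidneys, 12.9 FPKM in the ureter labelled KO and 11.3 FPKM in the WT ureter (log2 fold change -0.52 ± 0.0923, SE, edgeR adjusted p = 0.00516). Both lay lower in each ureter than in every kidney, although Itgav did not pass with the KO libraries alone.

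The beta partners of Itgav went separate ways. Itgb8, which activates latent TGF-beta with Itgav (gene 320910, chr12:119162803-119238276), had 160 and 240 counts in KO kidneys, 250 and 175 in WT kidneys, 11 in the ureter labelled KO and 0 in the WT ureter. Its log2 fold change was -4.57 ± 1.13 (SE, edgeR adjusted p = 0.0181), and it did not pass without KO kidney replicate 2 (-4.82) or without WT kidney replicate 2 (-4.57). Its size rested on the ureter libraries, since it was -3.17 without WT ureter and -10.60 without the ureter labelled KO, where the WT ureter at 0 counts is left and the value is no bound. Itgb3, the vitronectin receptor subunit also found on platelets (gene 16416, chr11:104608000-104670476), had 0.494 and 0.698 FPKM in KO kidneys, 0.530 and 0.455 FPKM in WT kidneys, 2.60 FPKM in the ureter labelled KO and 3.01 FPKM in the WT ureter. It rose by 2.67 on the log2 scale (SE 0.218, edgeR adjusted p = 0.000214).

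Itgb5, also a vitronectin receptor subunit, had 30.4 to 34.8 FPKM in kidneys and 32.3 (KO) and 35.7 FPKM (WT) in ureters, with a log2 fold change of 0.36 ± 0.0874 (SE, edgeR adjusted p = 0.0178) that fell to 0.07 and did not pass with library size alone. Itgb5 passed in 7 of 15 alternatives, and also failed with limma (0.06) and in each genotype alone. The call was lost too without KO kidney replicate 2 (0.34), the ureter labelled KO (0.38), WT kidney replicate 2 (0.33) or WT ureter (0.33). Itgb6, an epithelial subunit, had 4.27 to 9.52 FPKM in kidneys and 4.40 and 7.03 FPKM in ureters, and differed within each tissue more than between them (log2 fold change 0.09 ± 0.358, SE, edgeR adjusted p = 0.863, and -0.20 with library size alone). Itga5, the fibronectin receptor subunit, had 14.2 to 17.4 FPKM in kidneys and 15.2 and 18.0 FPKM in ureters, and its log2 fold change of 0.40 ± 0.117 (SE, edgeR adjusted p = 0.0315) fell to 0.11 with library size alone and did not pass. Itga5 passed in 6 of 15 alternatives, and also failed with limma (0.10) and in each genotype alone. Its call was lost too without KO kidney replicate 2 (0.35), the ureter labelled KO (0.46), WT kidney replicate 1 (0.42), WT kidney replicate 2 (0.37) or WT ureter (0.34).

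Of the 4 alpha subunits that bind collagen, Itga2 passed. Itga2 (gene 16398, chr13:114833081-114932100) had 0.989 and 0.530 FPKM in KO kidneys, 0.747 and 0.559 FPKM in WT kidneys, 4.58 FPKM in the ureter labelled KO and 2.18 FPKM in the WT ureter, and rose by 2.49 on the log2 scale (SE 0.353, edgeR adjusted p = 0.00209). Itga1, known from smooth muscle and stroma, was at 6.91 to 10.5 FPKM in kidneys and 9.34 and 9.66 FPKM in ureters (log2 fold change 0.45, adjusted p = 0.0962). Itga10 and Itga11 had log2 fold changes of 0.52 and -1.02 (adjusted p = 0.421 and 0.328), with ureter libraries far apart, as described for the genotypes below.

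Integrins of leukocytes and platelets were low in all libraries. Itgal, Itgam, Itgb2 and Itgb7 lay between 0.128 and 1.26 FPKM in the 6 libraries, Itga4 between 1.19 and 2.35 FPKM and Itga2b, the platelet alpha subunit, between 0.822 and 1.60 FPKM, and none of the 6 passed (log2 fold changes -0.36, 1.12, 0.87, 1.34, 0.36 and 0.12, adjusted p = 0.373, 0.118, 0.0937, 0.145, 0.292 and 0.758 in that order). Itgae had 0 and 20 counts in KO kidneys, 10 and 12 in WT kidneys and 0 in both ureters, so that its kidney mean was at least 1.67-fold higher than 3 counts in a ureter library. Itgad had 7 counts in 1 WT kidney and 0 elsewhere, and Itgax had 0 to 12 counts. The leukocyte marker list summed to 36.6 to 68.8 FPKM in kidneys, 88.2 FPKM in the ureter labelled KO and 209 FPKM in the WT ureter. Its markers did not move together. S100a8 had 8.75 to 22.4 FPKM in kidneys and 32.1 and 92.1 FPKM in ureters. Ptprc had 1.46 to 3.78 FPKM in kidneys and 1.08 and 1.06 FPKM in ureters. Of 7 markers tested 3 were higher in ureter (21.4% of all genes) and 1 higher in kidney (23.7% of all genes), while Cd3e had 0 to 4 counts. The platelet list summed to 15.5 to 19.3 FPKM in kidneys and 94.2 and 48.0 FPKM in ureters. Most of each sum was Pf4, at 13.6 to 17.4 FPKM in kidneys and 92 and 46.2 FPKM in ureters. Of its 5 markers 2 were higher in ureter (21.4% of all genes) and 0 higher in kidney, Itga2b being itself on the list. Gp1ba was at 0 to 28 counts, and Gp9 at 4 to 15 counts in kidneys and 0 in both ureters. The part of leukocytes and platelets in the values of Itgb3 was not tested.

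**Figure D3:**
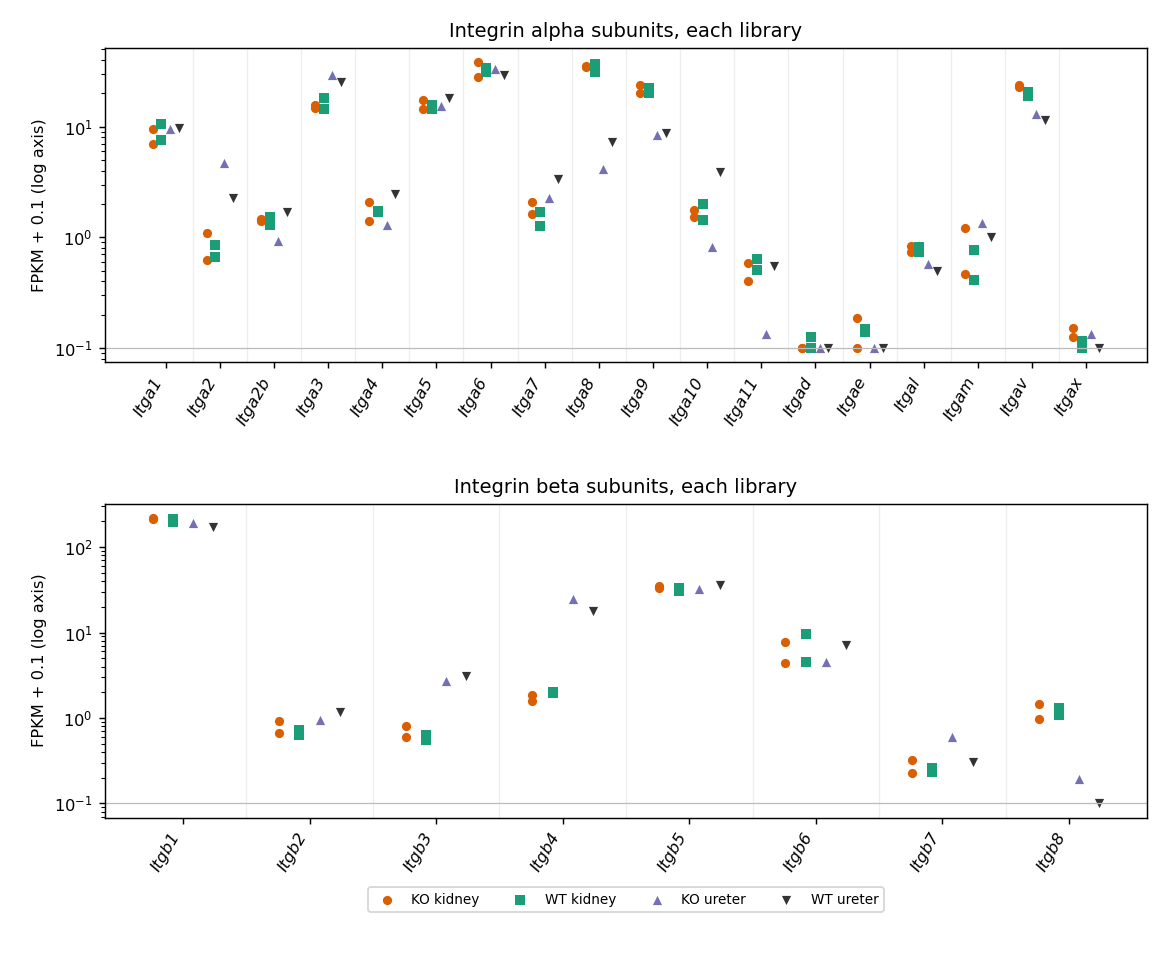
FPKM + 0.1 (log axis) of the 18 integrin alpha and 8 integrin beta subunits, with 1 point a library, coloured by genotype and tissue. Itga8 and Itga9 are lower and Itga3, Itgb3 and Itgb4 higher in both ureters than in all kidneys, and Itgb1 is above 170 FPKM in all 6 libraries.

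Alpha and beta levels were then set against each other for 24 known integrin pairs, on the log2 scale of FPKM + 0.1. The tissues did not overlap for 16 pairs, of which 11 had a lower and 5 a higher alpha to beta ratio in ureter. For single genes, 61.0% of all genes did not overlap, and no such share was computed for ratios of other genes. The 11 include Itgae/Itgb7, Itgax/Itgb2 and Itgad/Itgb2, whose alpha subunits lay below the added 0.1 FPKM in every library, so these ratios rest largely on that constant. The log2 ratio of Itga6 to Itgb4 was 4.37 and 4.12 in KO kidneys, 3.97 and 4.11 in WT kidneys, 0.40 in the ureter labelled KO and 0.70 in the WT ureter. Itga6 was thus 18.6 times Itgb4 in kidney and 1.45 times in ureter, whereas its log2 ratio to Itgb1 was -2.69 ± 0.20 (SD, n = 4) in kidney and -2.55 ± 0.0205 (SD, n = 2) in ureter, with overlap.

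Itga8 stood at 0.163 of Itgb1 in kidney and 0.0308 in ureter, and Itga3 at 0.0740 and 0.15. Among the pairs of Itgav, its ratio to Itgb3 was 39.4 in kidney and 4.32 in ureter, and its ratio to Itgb5 was 0.657 and 0.356. Against Itgb8 the log2 ratio ran the other way, from 4.18 ± 0.256 (SD, n = 4) in kidney to 6.45 ± 0.542 (SD, n = 2) in ureter. Itgb8 had 0.0936 FPKM in the ureter labelled KO and 0 FPKM in the WT ureter, so the size of its ureter ratio depends on the added 0.1. The tissue difference of 2.27 became 0.23 with FPKM + 1 and 2.88 with TPM + 0.1. Against Itgb6 the tissues overlapped (1.79 ± 0.654 and 1.11 ± 0.602). Several pairs share a subunit, so that the 16 are not separate observations.

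**Figure D4:**
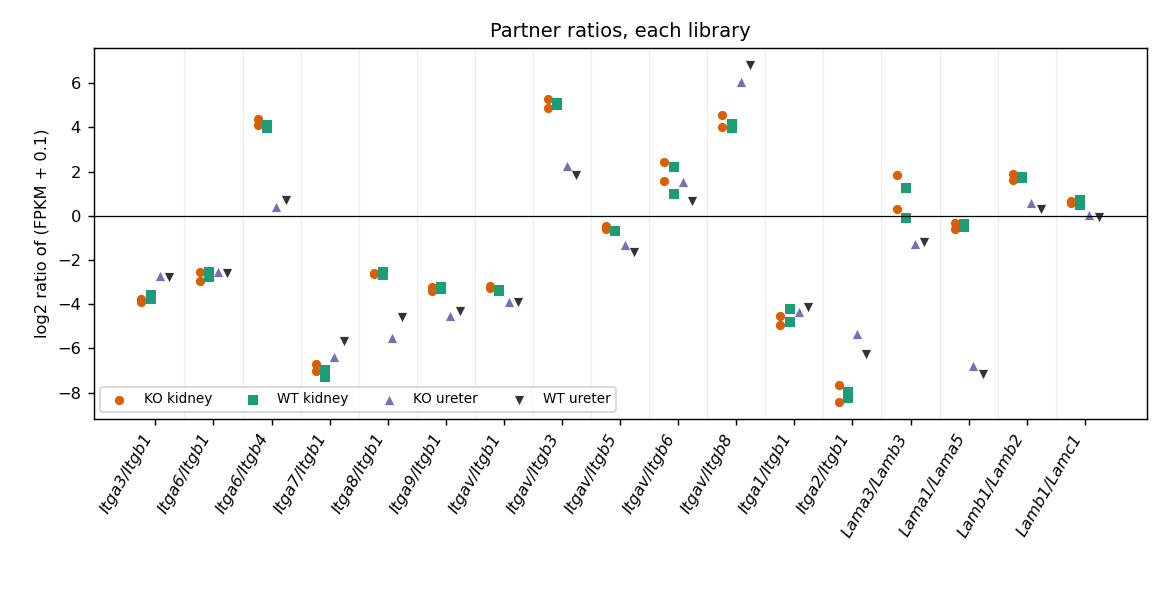
Log2 ratio of FPKM + 0.1 for 13 integrin pairs and 4 laminin chain ratios, with 1 point a library, coloured by genotype and tissue. Itga6/Itgb4 drops from a mean of 4.14 to 0.55 and Lama1/Lama5 from -0.44 to -6.97 between kidneys and ureters, and the tissues overlap for Itga6/Itgb1.

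Ligands and partners of these receptors were taken from a list of 53 genes. By edgeR's test 23 of 53 were higher in ureter (21.4% of all genes) and 9 higher in kidney (23.7% of all genes), with a median log2 fold change of 0.32 against -0.08 over all genes. Among the called genes of this list, the largest falls in ureter were in Spp1, Frem1 and Npnt. Spp1 (osteopontin) had 211.2 to 274.1 FPKM in kidneys and 1.81 and 7.81 FPKM in ureters (log2 fold change -5.46 ± 0.534, SE, edgeR adjusted p = 0.000463), Frem1, a protein that helps to hold nephronectin in the basement membrane, 24.1 to 27.1 FPKM and 0.926 and 3.10 FPKM (-3.52, 0.395 and 0.000797), and Npnt, the ligand of α8β1, 101.1 to 110.3 FPKM and 10.1 and 13.7 FPKM (-2.82, 0.118 and 2.04e-05). Itga8 and Npnt were thus both lower in each ureter than in every kidney.

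The largest rises were in Itgbl1, an integrin beta-like gene at 0 to 3 counts in kidneys and 9 and 41 in ureters (log2 fold change 5.61 ± 1.36, SE, edgeR adjusted p = 0.0169), Vtn (vitronectin, a ligand of Itgav with Itgb3 or Itgb5) at 0 to 34 counts and 94 and 240 (3.75, 1.09 and 0.0318), and Ptk2b, a focal adhesion kinase relative, at 2.06 to 2.49 FPKM and 13.6 and 9.52 FPKM (2.63, 0.210 and 0.000197). The first 2 rest on low counts.

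The second comparison asked whether the members differed between Ahnak KO and WT kidney, with 2 libraries of each. Of 35 members, 0 passed edgeR's quasi-likelihood test, against 0.0121% of all genes (2 genes), and 1 member (Itgav) and 227 genes had an unadjusted p under 0.05. DESeq2's Wald test called 25 genes as higher and 21 as lower in KO with 0 members among them, and limma on log2(FPKM + 1) called 0 genes. The members' median log2 fold change was 0.04 with a median size of 0.07, against 0.12 over all genes, and they ranged from -0.74 (Lamb3) to 0.64 (Itgam), the laminin chains apart from Lamb3 from -0.26 to 0.07.

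Itgav had 22.8 and 23.5 FPKM in KO and 20.5 and 18.9 FPKM in WT kidneys (log2 fold change 0.25 ± 0.0970, SE, edgeR adjusted p = 1). Both KO kidneys lay above both WT kidneys for Itgav, Itgb1 (0.10 ± 0.0896, SE) and Itgb5 (0.12 ± 0.104, SE), that is for 3 of 35 members against 12.8% of all genes. They lay below for Lama3 (-0.26 ± 0.240, SE) and Itgb4 (-0.18 ± 0.186, SE), that is for 2 of 35 against 13.5% of all genes. Lamb3, at 0.0930 and 0.480 FPKM in KO and 0.678 and 0.287 FPKM in WT kidneys, overlapped (-0.74 ± 0.824, SE), and so did Itga8 (0.07 ± 0.117, SE). The median standard error over the 35 members was 0.188, which limits the differences detectable with 2 libraries a genotype. One KO kidney library differed from the other 3 in Xist, as given above.

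The third comparison set the 1 ureter library labelled Ahnak KO, in which Ahnak was lower by CPM and higher by FPKM, beside the 1 WT ureter library, without a test, on the log2 scale of CPM + 0.5. Of 34 members with at least 10 counts in 1 of them, 1 was over 2-fold above WT (4.44% of all genes) and 2 were over 2-fold below (5.78% of all genes). Itga2 was above, at 727 and 519 counts (4.58 and 2.18 FPKM, log2 ratio 1.23). Those below were the collagen receptor subunits Itga10 (gene 213119, chr3:96645584-96664519), at 137 and 1078 counts (0.719 and 3.79 FPKM, log2 ratio -2.06), and Itga11 (gene 319480, chr9:62677855-62783979), at 7 and 125 counts (0.0323 and 0.449 FPKM, log2 ratio -1.90). The ureter labelled KO lay below all 4 kidneys for both genes, while the WT ureter lay above the kidneys for Itga10 (1.34 to 1.89 FPKM) and among them for Itga11 (0.300 to 0.540 FPKM). Striated muscle markers summed to 77.7 FPKM in the ureter labelled KO and 201 FPKM in the WT ureter against 7.47 to 9.06 FPKM in kidneys. Actc1 (26.9 and 127 FPKM) and Ckm (42.2 and 57.2 FPKM) made up most of the ureter sums, while Myog had 0 and 6 counts there. The paper counts Actc1 among its muscle genes lower in Ahnak KO ureter. S100a8 had 474 and 2034 counts in the ureters. The part of these marker genes' cells in the member values above was not tested.

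Lamb3 was at the 2-fold line with a log2 ratio of 1.0 (29.0 and 16.7 FPKM). Lamc3 (0.74, 5.52 and 3.77 FPKM), Itgb4 (0.68, 24.8 and 17.8 FPKM) and Lama3 (0.35 on counts) were also higher in the ureter labelled KO, with smaller log2 ratios than Lamb3. The laminin chains had a median of 0.35, against -0.02 over all genes, and Lama5 lay below 0 (-0.18). Itga8 had a log2 ratio of -0.62 (4.02 and 7.18 FPKM). Urothelium markers, with 1 of 7 over 2-fold above and a median log2 ratio of 0.19, summed to 4260 and 4544 FPKM in the ureters labelled KO and WT, and smooth muscle markers, with a median of -0.18, to 1899 and 2511 FPKM. For Itgb8, with 11 and 0 counts, the ureter labelled KO was at least 6.33-fold higher than 3 counts in the WT library, and Itgax had 6 and 0 counts (at least 3.45-fold). The ureter library labelled KO also carried the high Rn45s share, and genotype and library cannot be told apart here.

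Whether the genotype difference itself differed between the tissues was tested as an interaction in all 6 libraries, where the spread comes from the kidneys alone. Of 36 members, 0 passed in edgeR, against 0.108% of all genes (19 genes), while 7 members and 2174 genes had an unadjusted p under 0.05. Among these were Itga10 (-2.15 ± 0.429, SE, adjusted p = 0.164), Itgb8 (adjusted p = 0.179), Itgb4 (0.86, 0.219 and 0.234), Itga11 (-3.11, 0.860 and 0.263), Itga8 (-0.69, 0.213 and 0.295) and Lamc3 (0.72, 0.281 and 0.383), where the first value is the log2 difference of ureter minus kidney.

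**Figure D5:**
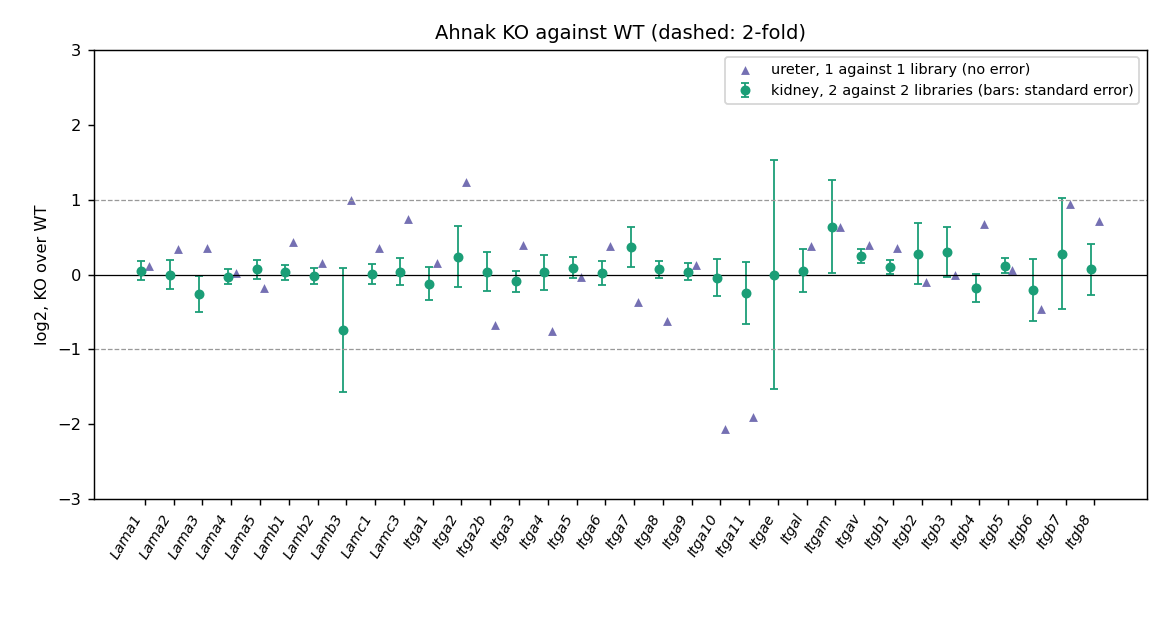
Log2 of Ahnak KO over WT for 34 members tested in kidney (circles, with standard error) and for those of them with 10 counts in ureter (triangles, without error), with dashed lines at 2-fold. Kidney values lie near 0 with wide errors for low genes, and in ureter Itga2 lies above and Itga10 and Itga11 below the lines.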

How the data were processed

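RNA of PN1 mouse kidney and ureter was read in 6 libraries, for which the labels name total RNA as the extract and the methods a stranded mRNA kit. The authors deposited, for each gene, an estimated count given as a whole number, FPKM and TPM, and the last 2 are their normalized values. The submitters' processing notes list Trimmomatic 0.38, HISAT2 2.1.0, StringTie 1.3.4b and mm10, whereas the methods name Cutadapt, STAR, Cufflinks and GRCm39. The notes also list FastQC 0.11.7, edgeR and R 3.6.1. Gene positions here are those of RefSeq on GRCm38.p6, matched by gene number.

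The estimated counts as deposited entered edgeR 4.0.16 in R 4.3.3, with its TMM factors, its filterByExpr and its quasi-likelihood test, adjusted by Benjamini-Hochberg over all genes (threshold 0.05), although the plan spoke of read counts. Tissue was tested with genotype as a covariate (16873 genes, 3 residual degrees of freedom), genotype in kidney alone (16481 genes, 2 degrees) and the interaction in all 6 libraries (17557 genes, 2 degrees). An approximate standard error was had from each log2 fold change and its F statistic (its size over the root of F). Separate mice behind libraries of a group are not stated for each, so p-values measure the spread between these libraries. In the column names, the ureter library and kidney replicate 2 of each genotype end in the same numbers, whose meaning is not stated. Whether they came from the same mice is not known, and the tissue test took all libraries as independent. For ureter, TMM-scaled CPM + 0.5 of KO over WT was put on the log2 scale, for genes with at least 10 counts. Ratios of subunits used log2(FPKM + 0.1). Alternatives used DESeq2 1.42.0, limma 3.58.1 on log2(FPKM + 1), other scaling, filters and pseudocounts, a replicate block, 1 genotype alone and leaving out each library. Scaling by library size alone in the tissue comparison, and a crossed block, were added after seeing the data. The code was tested on simulated data.

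Of 37 members 36 are named (1 member and 1 marker gene are not reported here but enter the counts and sums), with full values for those that passed in tissue, went past 2-fold in ureter or form an epithelial pair, and 3 partners in each direction. The members and lists were chosen with earlier results of these data known. Reads were not remapped.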

Additional observations from a re-analysis of the deposited data

How the results depend on the processing

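Between kidney and ureter, 436 of 518 member values under the alternatives kept direction and side of the threshold, 41 no longer passed, 13 newly passed and 28 turned direction, and all of the last concern members that did not pass. Library size alone gave 2371 genes and 7 members higher in ureter and 6108 genes higher in kidney, and limma on log2(FPKM + 1) gave 2222, 7 and 6028. Leaving out 1 library gave 2448 to 3320 genes and 10 to 13 members higher in ureter and 2710 to 3573 genes higher in kidney, and leaving out the gene Rn45s gave 3611 and 3966 genes. With library size alone, Itga2b was at -0.16, Itga6 -0.07, Itgb1 -0.21 and Itgb6 -0.20, and with limma at -0.09, -0.08, -0.22 and -0.12. In KO libraries alone, Itga2b was at -0.29, Itga4 -0.06, Itga10 -0.71, Itgb6 -0.05 and Lama4 0.02, and in WT libraries alone Itga11 was at 0.12 and Itgb1 at -0.06. Lama4 was at 0.01 with DESeq2 size factors and 0.00 in its Wald test. Without 1 library, Lama4 ran from -0.03 to 0.02, Itga2b from -0.30 to 0.49, Itga4 from -0.06 to 0.73, Itga10 from -0.71 to 1.44, Itga11 from -2.99 to 0.12, Itgb1 from -0.05 to 0.21 and Itgb6 from -0.13 to 0.36. Without the WT ureter library Itga2b, Itga4 and Itga10 turned to -0.30, -0.06 and -0.71, and without the ureter library labelled KO Itga11 turned to 0.12. In Ahnak KO kidney, genes called higher were 25 with DESeq2's Wald test and 1 to 24 without 1 library, and genes called lower 21 with the Wald test, 0 in all 6 libraries in one fit, 0 with limma and 2 to 63 without 1 library (63 without KO kidney replicate 2), against 0 higher and 2 lower. Same-numbered kidney libraries did not deviate together (correlation -0.193 across genes), so the numbers are not taken as pairs. With a replicate block 0 genes were lower, and with the crossed replicate block 1. In the fit of all 6 libraries Itgb4 was at 0.11 and Itga8 at -0.16. Without 1 library Lamb3 ran from -2.36 to 0.01 and Itga8 from -0.05 to 0.19. In ureter, log2(CPM + 0.1) gave 1137 genes above and 1638 below WT and 3 members above, and FPKM gave 1840 genes below. Of 58 subunit ratios under other pseudocounts or TPM, 47 moved by less than 1 SD and 0 turned direction where tissues did not overlap. The causes were not tested. With 1 ureter library a genotype no spread could be estimated there, and 3 counts stood for 0.0454 to 0.0824 CPM over the 6 libraries.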

Other observations

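The remaining cell type lists were compared between tissues in the same fit, in which 21.4% of all genes were higher in ureter and 23.7% higher in kidney. Endothelium markers had 1 of 5 higher in ureter and 2 higher in kidney, and summed to 188 to 215 FPKM in kidneys and 122 (KO) and 145 FPKM (WT) in ureters. Striated muscle markers had 5 of 5 tested higher in ureter, Schwann cell markers 2 of 3, adipocyte markers 1 of 2 and red blood cell markers 1 of 5, with 0 higher in kidney in each of these lists. Adipocyte markers summed to 4.13 FPKM in the ureter labelled KO and 0.365 FPKM in the WT ureter, and red blood cell markers to 902 and 1247 FPKM there and 51.2 to 1446 FPKM in kidneys. The partner list in Ahnak KO against WT kidney had 0 of 52 genes past edgeR's adjusted threshold, against 0.0121% of all genes. An unadjusted p under 0.05 was found for 1 of them (Lims2, log2 fold change 0.64), against 227 of 16481 genes. In ureter 3 of its 53 genes were over 2-fold above WT (Tnc 1.34, Ntn4 1.16 and Plec 1.04), against 4.44% of all genes. Another 3 were over 2-fold below (Spp1 -1.66, Frem1 -1.49 and Itgb1bp2 -1.20), against 5.78% of all genes. Each ratio came from 1 library a genotype and without a test. Plec, the plectin gene, whose product links integrin α6β4 to keratin filaments, also passed as higher in ureter than kidney (log2 fold change 1.93, standard error 0.232, adjusted p = 0.00106 from edgeR), at 6.33 to 8.73 FPKM in kidneys and 30.8 and 16.8 FPKM in ureters. These 7 partner genes were named after their values were seen.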
